A study of Mus musculus with 9 samples.

Results

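Interferon-stimulated genes were followed here as a set of 34 genes that interferons are known to induce in many cell types, taken by symbol from a written list. The list was drawn up with earlier results of these data known, although its rule uses no measured value. All 34 were found among the 24391 genes of the deposited tables, and all 34 passed the low-count filter in each fit. In CD8+ T cells activated with an LSD1 inhibitor, by the library names of the deposited batch-corrected table, 1 of them was higher than in untreated cells (Gbp2, an interferon-inducible GTPase), 1 was lower (Isg20, an RNA exonuclease), and 32 did not pass the test. By the names of the deposited raw table, which differ for 4 libraries, none of the 34 passed.

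RNA was sequenced from mouse CD8+ T cells, which recognise and lyse infected or tumour cells. The not treated group (NT, 5 libraries) was activated for 72 h in medium with interleukin 2 at 100 U/mL. The LSD1 inhibitor group (LSD1i, 4 libraries) was activated for the same 72 h in the same medium with the inhibitor present. The labels name neither the compound nor its dose, nor the strain, sex or age of the mice, and they do not say whether the libraries of a group came from separate animals or cultures, so a p-value here reflects library-to-library spread that may be technical. LSD1, encoded by Kdm1a, removes methyl groups from histone H3 lysine 4 as part of corepressor complexes.

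Type I interferons (alpha and beta) signal through the receptor chains Ifnar1 and Ifnar2 to a complex that contains Stat2 and Irf9 and binds the interferon-stimulated response element (ISRE) of its target genes. Interferon gamma, which activated CD8+ T cells secrete in quantity, signals through Ifngr1 and Ifngr2 and acts at genes with a gamma-activated site (GAS). The induced proteins sense viral nucleic acid, block translation or degrade viral RNA, trap budding virus, or, as the guanylate-binding proteins (GBP) and immunity-related GTPases (IRG), attack membranes around intracellular pathogens.

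Promoter windows reaching from 250 bases before to 50 bases after each gene's start in RefSeq (build GRCm38.p6, whereas the submitters' processing notes name mm9 for the counts) were matched by symbol for 23 of the 34 genes, in 28 windows. Not matched were Dhx58, Zbp1, Oas1b, Oas2, Mx1, Mx2, Usp18, Rtp4, Ifi27l2a, Parp14 and Iigp1. The letters GAAANNGAAA, the core of an ISRE, were searched on both strands and stood in 14 of the 28 windows, against 1131 of all 32851 windows of that length (3.44%). The letters TTCNNNGAA of a GAS, searched on both strands with overlap between the motifs allowed, stood in 6 of the 28 windows (21.4%) and in 8.3% of all windows. These matches describe letters and not bound sites. Stretches of 30 bases are shown for the members of the GTPase group with a match, which includes the gene that rose, for Isg20, the gene that fell, and for 3 classical members that did not pass, Isg15, Ifit1 and Oas1a, because promoters with and without a change in RNA can then be read side by side. Each runs 5′ to 3′ along its gene's strand, and the capitals mark the motif letters. All but that of Isg20 hold an ISRE match, that of Igtp holds a GAS match as well, and that of Isg20 holds a GAS match only.
Gbp2: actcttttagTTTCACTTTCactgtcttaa
Gbp3: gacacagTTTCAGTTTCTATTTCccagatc
Igtp: ccatTTCTAGGAActGAAACTGAAAgctgt
Irgm1: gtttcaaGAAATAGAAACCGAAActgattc
Isg15: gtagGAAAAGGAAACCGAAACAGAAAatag
Ifit1: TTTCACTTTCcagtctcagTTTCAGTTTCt
Oas1a: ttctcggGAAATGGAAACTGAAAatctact
Isg20: ctggggagggTTCTTGGAAtttttcctttt

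Each stretch lies just upstream of the first exon in RefSeq, except that of Oas1a, which runs past the start into the first exon. The Gbp2 stretch is chr3:142620594-142620623 on the plus strand and that of its neighbour Gbp3 is chr3:142559992-142560021 (plus). Igtp is shown at chr11:58199507-58199536 (plus) and Irgm1 at chr11:48871428-48871457 (minus). Isg15 is shown at chr4:156200871-156200900 (minus), Ifit1 at chr19:34640785-34640814 (plus), Oas1a at chr5:120907523-120907552 (minus) and Isg20 at chr7:78913341-78913370 (plus). In Gbp2 the ISRE letters began 59 bases before the start, in Irgm1 30 and in Isg15 78. In Isg20 the GAS letters stood in 1 of its 3 windows, beginning 73 bases before the start. No ISRE letters were found in any of the 3. Ifit2 and Ifi35, neither of which passed, also had GAS letters and no ISRE letters. Oas1a had GAS letters as well, beginning 98 bases before the start and outside the stretch shown.

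The deposited raw and batch-corrected count tables differ in the names of 4 libraries. Genes at zero matched each raw library to exactly 1 corrected library, and the raw libraries named NT 1, NT 2, LSD1i 1 and LSD1i 2 carry the names LSD1i 1, LSD1i 2, NT 1 and NT 2 in the corrected table, while NT 3 to NT 5 and LSD1i 3 and LSD1i 4 are named alike. Results are therefore given from the batch-corrected table, from the raw table as named, and from the raw counts of the 5 libraries named alike. Raw totals were 15163983 to 29245278 reads per library. In the largest, LSD1i 1 of the raw table and NT 1 of the corrected table, 13.3% of the reads were of the ribosomal RNA gene Rn45s. In the others this share was 1.66% to 2.87%. Summed levels of 9 CD8 T cell markers were 2572 to 2809 CPM (counts scaled to library size) in NT and 2852 to 2978 in LSD1i, against at most 2.18 CPM for 8 myeloid and dendritic markers, 0.468 for 2 CD4 T cell markers and 0.189 for 2 natural killer cell markers, with Ncr1 at 0 in every library. Of the CD8 T cell markers, Cd8a was higher in every LSD1i library than in any NT library (0.38 ± 0.080, adjusted p = 0.0266, edgeR's quasi-likelihood test). This call was held in 3 of 9 fits without 1 library and lost with the batch term described below (adjusted p = 0.126). Cd8b1 (0.27 ± 0.080, 0.104) and Cd2 (−0.33 ± 0.15, 0.314) did not pass. The 4 plasmacytoid dendritic cell markers summed to 6.02 to 9.17 CPM in NT and 5.88 to 7.46 in LSD1i, nearly all of it Tcf4, and Klk1 was at 0 throughout. The 6 B cell markers summed to 11.4 to 12.5 CPM in NT and 10.0 to 11.6 in LSD1i. Within them, by the corrected names, Cd22 rose from 0.125 ± 0.152 to 1.69 ± 0.487 CPM, by 3.52 ± 0.54 on the log2 scale (adjusted p = 0.00365, edgeR's quasi-likelihood test). By these names it passed in 9 of 9 fits without 1 library. Cd79b fell by 0.43 on the log2 scale (adjusted p = 0.0317), but passed in only 2 of 9 fits without 1 library and not with the batch term (adjusted p = 0.132), while the mean of Ms4a1 was at most 0.0557 CPM in either group. In the 5 libraries named alike, Cd8a (0.29, adjusted p = 0.396), Cd22 (3.65, 0.0862) and Cd79b (−0.50, 0.213) did not pass by the same test. In the raw table as named, Cd8a was at −0.037, Cd22 at −0.43 and Cd79b at −0.11 (adjusted p = 0.999 for each). The part of Cd8a, Cd22 and Cd79b in the results for the members was not tested.

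Few interferon-stimulated genes differed between the groups by the test, and those that did moved in opposite directions. In the batch-corrected table, 1 of 34 was higher in LSD1i and 1 lower at an adjusted p under 0.05 (edgeR's quasi-likelihood test, Benjamini-Hochberg over 11981 genes). Among all genes tested 2.15% were higher and 1.16% lower by the same rule, so the members' counts are near the background. The median log2 fold change of the members was 0.046, against −0.019 for all genes tested, and 19 of the 34 lay above 0. The size was under 0.5 on the log2 scale for 30 of the 34, the standard errors ran from 0.085 to 0.31 with a median of 0.13, and for 32 of the 34 a range of 2 standard errors on either side lay between −1 and 1. Every LSD1i library lay above every NT library for 2 members, Gbp2 and Gbp3, against 4.41% of all genes, and below for 1, Isg20, against 3.46%. The groups overlapped for the other 31. Because the RNA came from whole cultures, fewer cells expressing a gene and less RNA per cell cannot be told apart.

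**Figure D1:**
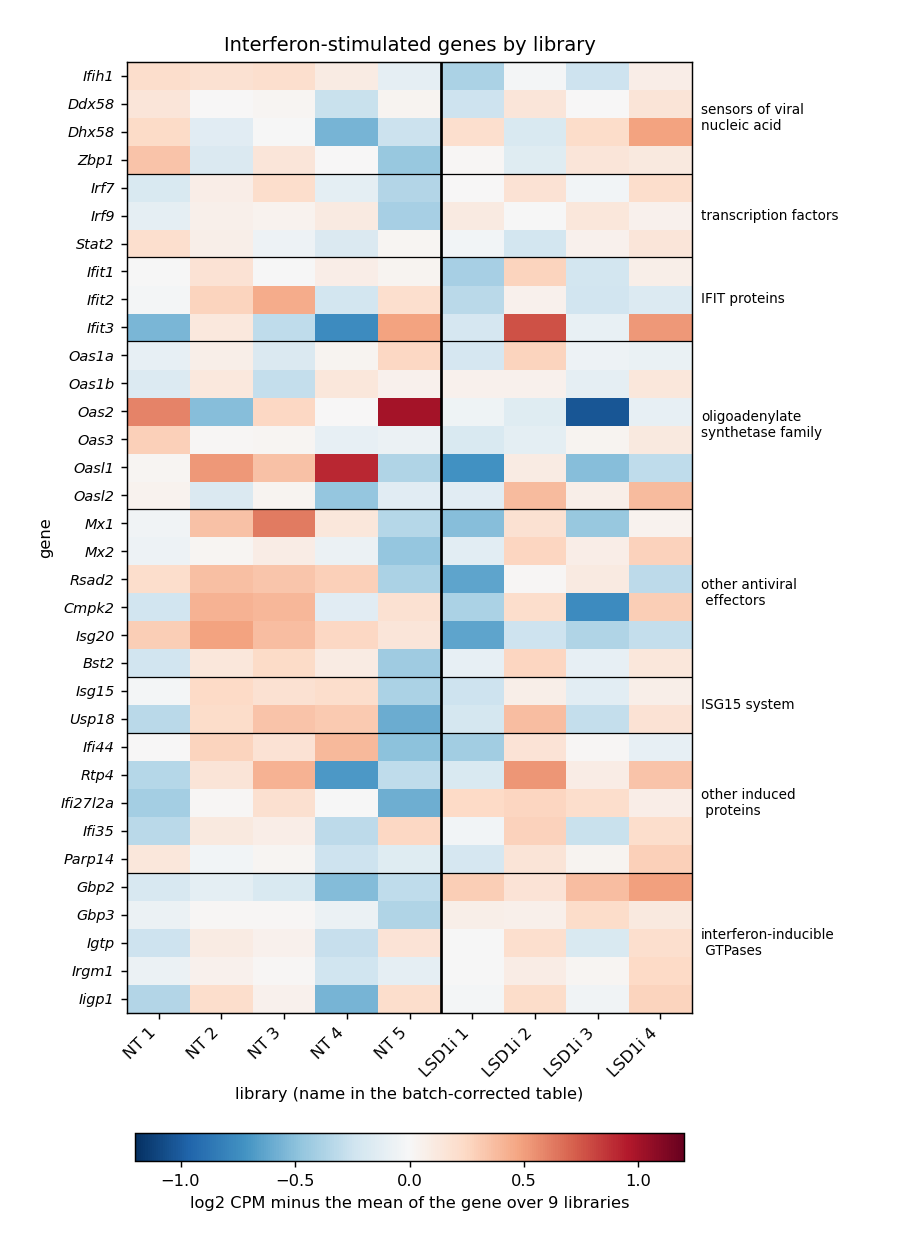
Level of each of the 34 genes in each library of the batch-corrected table, as log2 CPM minus the gene's mean over the 9 libraries (colour scale), with genes grouped by role and a line between the 5 NT and 4 LSD1i libraries. Gbp2 is above its mean in all 4 LSD1i libraries and Isg20 is below its mean in all 4, while most rows change sign within each group.

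In the raw counts of the 5 libraries named alike (3 NT, 2 LSD1i), 0 of 34 members passed in either direction, with 5 at an unadjusted p under 0.05. Among all genes of that fit 1669 of 12078 were under it too, so the members' count is near the background. Of all genes in that fit 0.803% were higher and 0.166% lower, 21 members lay above 0, and their median was 0.098. This count rests on NT 5, since without that library 2 members were higher (Gbp2, adjusted p = 0.00569, and Dhx58, 0.0379) and 2 lower (Isg20, 0.0298, and Oasl1, 0.00631). Calls over all genes rose with them, to 520 higher and 256 lower of 11916 without NT 5, from 97 and 20 of 12078 with it. In the raw table as named, 0 of 34 passed in either direction, 0 were at an unadjusted p under 0.05, and 0% of all genes were higher and 0% lower. DESeq2 called 0 members there and 1 gene in all, and 172 genes had an unadjusted p under 0.05 with edgeR. The raw counts were also given the corrected table's names and a batch term separating replicates 1 and 2 from replicates 3 to 5. The labels name no batch, so this split, called batches below, was assumed here. With it the same 2 members passed, Gbp2 higher and Isg20 lower, against 1.39% of all genes higher and 0.453% lower.

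**Figure D2:**
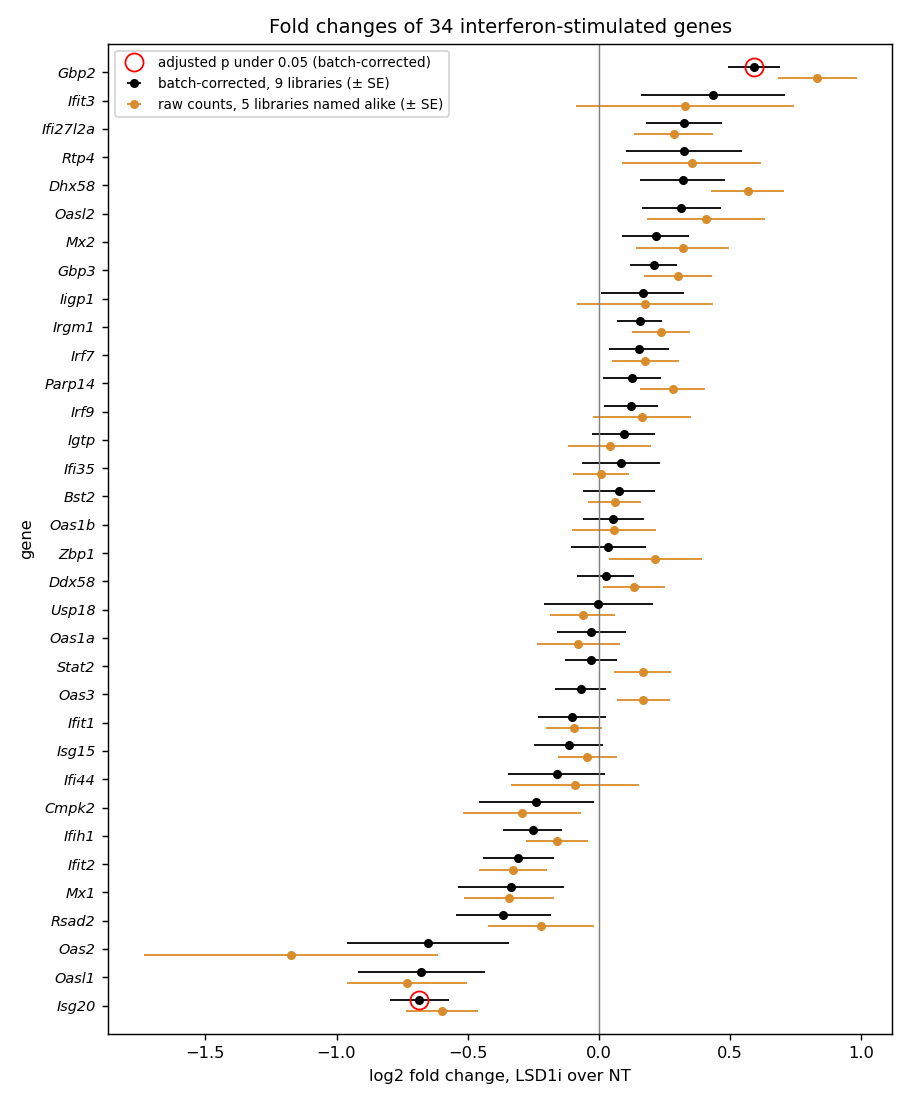
Log2 fold change of LSD1i over NT (horizontal axis, bars ± 1 standard error) for the 34 genes in the batch-corrected table (black, 9 libraries) and in the raw counts of the 5 libraries named alike (orange). Red rings mark Gbp2 and Isg20, the members that passed in the batch-corrected table; the values of the remaining members run from −0.68 for Oasl1 to 0.44 for Ifit3.

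Sensors of viral nucleic acid comprised Ifih1 (MDA5) and Ddx58 (RIG-I), helicases that detect viral RNA, Dhx58 (LGP2), their regulator, and Zbp1, which binds Z-form nucleic acid and can trigger necroptosis. None of the 4 passed and 3 lay above 0. Dhx58 was at 83.9, 65.0, 71.6, 48.7 and 59.9 CPM in the NT libraries, in order of their numbers here and below, and at 82.4, 62.9, 83.5 and 100.3 CPM in the LSD1i libraries. LSD1i 4 was the highest and NT 4 the lowest, and the groups overlapped (log2 fold change 0.32 ± 0.16, adjusted p = 0.405). The difference was −0.13 within replicates 1 and 2 and 0.57 within replicates 3 to 5 of the raw counts under the corrected names. Zbp1 was at 77.5, 54.0, 67.7, 61.2 and 44.7 CPM in NT and 61.7, 55.1, 67.3 and 66.4 CPM in LSD1i, with NT 5 and NT 1 at the extremes and all LSD1i libraries between them (0.037 ± 0.14, adjusted p = 0.954). Ifih1 ranged over 38.4 to 47.8 CPM in NT and 31.8 to 43.8 CPM in LSD1i (−0.25 ± 0.11, adjusted p = 0.321). For Ddx58 the difference was 0.027 ± 0.11 (adjusted p = 0.954).

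The transcription factors were Stat2 and Irf9, parts of the type I interferon complex, and Irf7, which amplifies interferon alpha production. None of the 3 passed. Stat2 was at 101, 92.5, 84.4, 77.9 and 89.7 CPM in NT and 86.2, 75.4, 91.0 and 97.1 CPM in LSD1i, with the extremes in NT 1 and LSD1i 2 and the groups overlapping (−0.029 ± 0.10, adjusted p = 0.943). Irf9 was at 79.3, 89.4, 88.2, 92.0 and 65.0 CPM in NT and 92.3, 85.2, 94.3 and 88.9 CPM in LSD1i. NT 5 lay below every other library and the groups overlapped (0.12 ± 0.10, adjusted p = 0.688). Irf7 ranged over 47.1 to 69.2 CPM in NT and 58.7 to 69.3 CPM in LSD1i (0.15 ± 0.12, adjusted p = 0.642).

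The IFIT proteins bind viral RNA that lacks host cap methylation and hold back its translation. None of the 3 passed, and 1 lay above 0. Ifit1 was at 20.6, 23.3, 20.7, 21.9 and 21.1 CPM in NT, a narrow range, and at 15.7, 24.8, 17.7 and 21.8 CPM in LSD1i, whose libraries lay on both sides of it (−0.10 ± 0.13, adjusted p = 0.811). Ifit2 was at 29.0, 35.5, 40.1, 25.3 and 33.9 CPM in NT and 23.6, 30.6, 25.2 and 26.4 CPM in LSD1i, with 2 LSD1i libraries below the NT range and 2 within it (−0.31 ± 0.14, adjusted p = 0.330). Ifit3, which has a near-identical neighbour, Ifit3b, so that its reads are uncertain, was low and spread widely over 3.44 to 8.10 CPM in NT and 5.02 to 9.80 CPM in LSD1i (0.44 ± 0.27, adjusted p = 0.541).

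The oligoadenylate synthetases make the messenger that switches on RNase L, and the related Oasl1 restrains translation of Irf7. None of the 6 passed, and 2 lay above 0. Oas3 was at 165, 137, 138, 127 and 129 CPM in NT and 119.8, 125, 139 and 147 CPM in LSD1i, with overlapping groups and the extremes in NT 1 and LSD1i 1 (−0.069 ± 0.10, adjusted p = 0.841). Oasl1 was at 20.9, 29.4, 26.2, 38.4 and 15.97 CPM in NT and 12.4, 21.9, 14.3 and 16.6 CPM in LSD1i. NT 4 was the highest library and LSD1i 1 the lowest, but NT 1 and NT 5 lay inside the LSD1i range (−0.68 ± 0.24, adjusted p = 0.200). With the replicate number as a block Oasl1 passed, at −0.82 (adjusted p = 0.0143) in the corrected counts and −0.72 (0.0167) in raw counts under the corrected names, although the numbers are not known to pair the samples. Oasl2 differed by 0.32 ± 0.15 (adjusted p = 0.373), in the other direction from Oasl1. Oas2, the lowest member with 8 to 66 raw reads per library, differed by −0.65 ± 0.31 (adjusted p = 0.364). Without each library in turn its value ran from −0.79 to −0.44. Oas1a (−0.027 ± 0.13) and Oas1b (0.055 ± 0.12), which belong to a cluster of near-identical genes, stayed within their standard error of 0.

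Isg20, a 3′ to 5′ exonuclease that degrades single-stranded RNA, was the member that fell. It was at 14.8, 16.8, 15.6, 14.3 and 13.3 CPM in NT and at 7.78, 10.2, 9.36 and 9.87 CPM in LSD1i. All 4 LSD1i libraries lay below all 5 NT libraries. The means were 14.96 ± 1.32 CPM (SD, n = 5) and 9.29 ± 1.06 CPM (SD, n = 4), a log2 fold change of −0.68 ± 0.11 (adjusted p = 0.00566, edgeR's quasi-likelihood test). The call held without each of the 9 libraries in turn, with values from −0.72 to −0.61. In raw counts under the corrected names with the batch term the value was −0.71 (adjusted p = 0.0219). Within the batches it passed in neither, at −0.86 in replicates 1 and 2 (adjusted p = 0.731) and −0.60 in replicates 3 to 5 (0.119). In the raw table as named it was at 7.54, 10.5, 14.2, 13.8 and 13.1 CPM in NT and 14.4, 18.1, 8.89 and 9.07 CPM in LSD1i. There the crossed libraries, NT 1 and NT 2 and LSD1i 1 and LSD1i 2, stood at the opposite ends from their group mates, the groups overlapped, and the difference was 0.091 (adjusted p = 0.999).

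None of the other 5 antiviral effectors passed. Mx1 and Mx2 are dynamin-like GTPases that block virus replication, Rsad2 (viperin) makes a chain-terminating nucleotide, Cmpk2 is the nucleotide kinase encoded beside it, and Bst2 (tetherin) holds budding virus at the cell surface. Mx1 was at 31.1, 40.8, 49.2, 35.1 and 25.2 CPM in NT and 22.5, 36.3, 23.3 and 32.9 CPM in LSD1i, with 2 LSD1i libraries below all NT libraries and the other 2 within the NT range (−0.33 ± 0.20, adjusted p = 0.526). Bst2 was at 121, 156, 166, 152 and 106 CPM in NT and 133, 169, 133 and 156 CPM in LSD1i, with NT 5 the lowest library, LSD1i 2 the highest and wide overlap (0.077 ± 0.14, adjusted p = 0.877). Differences of Rsad2 (−0.36 ± 0.18, adjusted p = 0.397), Cmpk2 (−0.24 ± 0.22, 0.721) and Mx2 (0.22 ± 0.13, 0.502) did not pass.

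Isg15, the ubiquitin-like protein that is conjugated to other proteins after interferon, and Usp18, the protease that removes it and that also blocks signalling at Ifnar2, did not pass. Isg15 was at 48.2, 57.6, 55.7, 56.6 and 37.7 CPM in NT and 41.1, 51.4, 44.9 and 51.5 CPM in LSD1i, all of the latter inside the NT range (−0.11 ± 0.13, adjusted p = 0.787). Usp18 was at 66.6, 97.1, 106, 104 and 55.1 CPM in NT and 72.0, 108, 68.2 and 94.3 CPM in LSD1i. Its lowest libraries were NT 5 and NT 1, and the group means were 85.7 ± 23.2 and 85.6 ± 18.7 CPM (log2 fold change −0.00082 ± 0.21, adjusted p = 0.999).

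Of 5 further induced genes, none passed and 4 lay above 0. Ifi27l2a, a small membrane protein and the most abundant member per length, was at 374, 501, 566, 494 and 331 CPM in NT and 584, 591, 573 and 524 CPM in LSD1i. NT 5 and NT 1 were the lowest, and NT 3 lay within the LSD1i range (0.33 ± 0.14, adjusted p = 0.327). Parp14, an ADP-ribosyltransferase, was at 182, 161, 168, 139 and 149 CPM in NT and 144, 185, 169 and 201 CPM in LSD1i, with overlapping groups (0.13 ± 0.11, adjusted p = 0.698). The values were 0.32 ± 0.22 for Rtp4 (adjusted p = 0.594), 0.084 ± 0.15 for Ifi35 (0.875) and −0.16 ± 0.19 for Ifi44 (0.792). Reads of Rtp4 and Ifi35 are shared in part with overlapping gene models, over 13.9% and 16.8% of their exonic length in GENCODE vM21.

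Among the interferon-inducible GTPases, 1 of 5 rose, against 2.15% of all genes, and all 5 values lay above 0. The share of all genes above 0 was not counted. The interferon gamma response list below holds further such GTPases, and there 11 of 22 values lay above 0, with a median of −0.0029. Gbp2, a guanylate-binding protein that coats and breaks pathogen vacuoles, was at 349, 369, 352, 278 and 324 CPM in NT and at 491, 447, 516 and 561 CPM in LSD1i. The lowest LSD1i library lay above the highest NT library. The means were 334 ± 35.2 CPM (SD, n = 5) and 504 ± 47.5 CPM (SD, n = 4), 1.51-fold higher, with a log2 fold change of 0.59 ± 0.10 (adjusted p = 0.00713, edgeR's quasi-likelihood test). The call held without each of the 9 libraries in turn, at 0.53 to 0.66. With the batch term on raw counts it was 0.65 (adjusted p = 0.0172). Within the batches it passed in neither, at 0.42 in replicates 1 and 2 (adjusted p = 0.926) and 0.83 in replicates 3 to 5 (0.0683). The larger value stood in the libraries whose names do not differ between the tables. In the raw table as named, Gbp2 was at 448, 438, 357, 262 and 332 CPM in NT and 331, 322, 529 and 593 CPM in LSD1i. There LSD1i 3 and LSD1i 4 were the highest libraries while LSD1i 1 and LSD1i 2 lay inside the NT range, and the difference was 0.27 (adjusted p = 0.999). Gbp genes are close paralogs, so reads that fit several of them are uncertain.

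**Figure D3:**
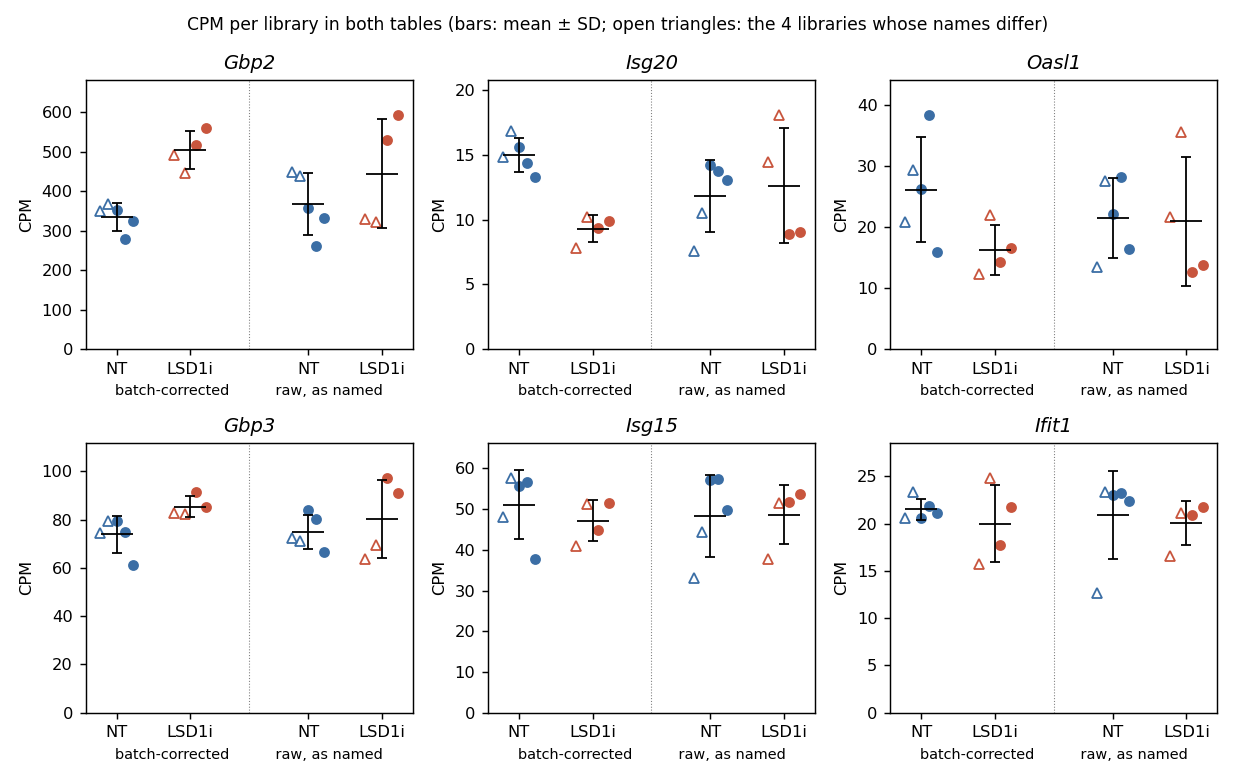
CPM of 6 members in every library (vertical axes from 0), with horizontal bars for the group mean and vertical bars for ± 1 SD, in the batch-corrected table (left of each panel) and in the raw table as named (right). Open triangles are the 4 libraries whose names differ between the tables. For Gbp2 and Isg20 the groups are apart in the batch-corrected table and overlap in the raw table as named, where the triangles stand away from the filled points of their group.

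Gbp3, the neighbour of Gbp2 on chromosome 3, was at 74.6, 79.4, 79.4, 74.9 and 61.0 CPM in NT and 82.7, 82.2, 91.4 and 85.3 CPM in LSD1i. Every LSD1i library lay above every NT library, but the difference did not pass (0.21 ± 0.090, adjusted p = 0.306). Igtp (Irgm3) and Irgm1, IRG proteins that guard the cell's own membranes, and Iigp1, which they regulate, had smaller values. Igtp was at 265, 339, 327, 261 and 354 CPM in NT and 315, 365, 278 and 363 CPM in LSD1i, with overlapping groups (0.10 ± 0.12, adjusted p = 0.812). An overlap with Irgm2 on the same strand covers 8.01% of its exonic length. The values of Irgm1 (0.16 ± 0.085, adjusted p = 0.448) and Iigp1 (0.17 ± 0.16, 0.731) did not pass.

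Levels of the members relative to each other were compared per length, as CPM per kb of exon (GENCODE vM21). In NT, Ifi27l2a stood highest at 979 ± 211 CPM per kb, followed by Bst2 (155 ± 28.4), Igtp (153 ± 21.4) and Gbp2 (133 ± 13.999). Next came Isg15 (67.7 ± 11.1) and Ifi35 (53.2 ± 9.56), and the lowest were Ifi44 (1.03 ± 0.222), Oasl2 (0.898 ± 0.121) and Oas2 (0.378 ± 0.147). The NT ranges of neighbours in this order were apart in only 5 of 33 pairs, so most of the order is not resolved: Ifi27l2a stood apart from Bst2, Gbp2 from Isg15, Ifi35 from Usp18, Ifit3 from Ifi44 and Oasl2 from Oas2. In LSD1i, Gbp2 was at 200.2 ± 18.9 CPM per kb, above the mean of Bst2 (163 ± 20.05) and of Igtp (163 ± 20.6), whereas in NT its mean lay below both.

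**Figure D4:**
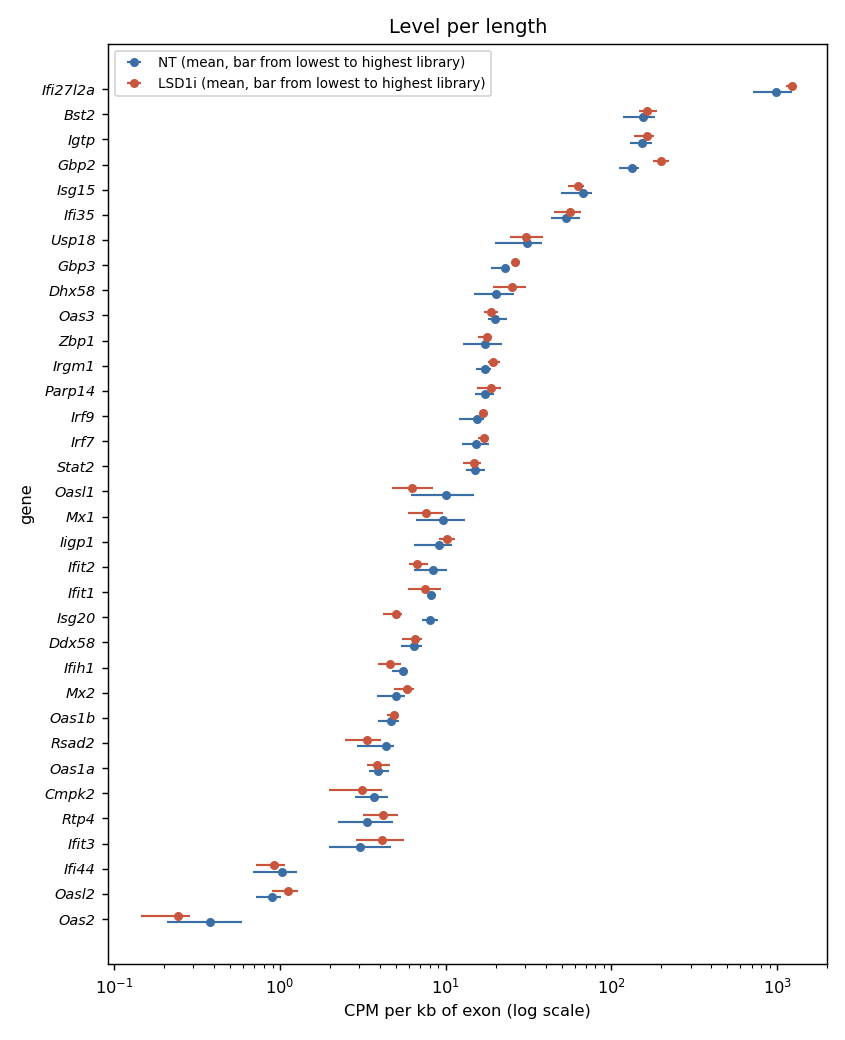
Level per length of the 34 genes (CPM per kb of exon, log axis), as the mean of the NT libraries (blue) and of the LSD1i libraries (red), with bars from the lowest to the highest library. In NT the levels span from Oas2 at 0.378 CPM per kb to Ifi27l2a at 979, and the bars of the groups are apart for Gbp2, Gbp3 and Isg20 alone.

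The members' common level also varied between libraries of 1 group. The mean of their centred log2 CPM was −0.040, 0.11, 0.13, −0.080 and −0.12 in the NT libraries, in order of number, and −0.16, 0.13, −0.097 and 0.13 in those with the inhibitor. Low and high libraries occurred in both groups. NT 5 was the lowest NT library for 15 of the 34 members and NT 4 for 13, LSD1i 1 was the lowest LSD1i library for 18, and LSD1i 2 and LSD1i 4 were the highest for 15 and 14. In raw counts under the corrected names, the sign of the difference was the same in both assumed batches for 26 of 34 members. This was not counted over all genes, so it cannot be set against a background.

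The rest of the pathway was read from 124 further genes, of which 101 were tested. Of these, 1 rose and 2 fell, with a median log2 fold change of 0.013 and 55 values above 0. Among all genes of the same fit 2.15% were higher and 1.16% lower. Among 12 interferon ligands only Ifng was tested, and the other 11 had at most 11 raw reads in any library. Ifng was at 379, 777, 689, 598 and 1402.5 CPM in NT and 337, 562, 189 and 327 CPM in LSD1i. NT 5 was far above the rest and LSD1i 3 far below, 3 LSD1i libraries lay under the NT range, and the difference did not pass (−1.12 ± 0.37, adjusted p = 0.155), although it did without NT 1 (adjusted p = 0.0488). In the 5 libraries named alike it was −1.88 (adjusted p = 0.146), and in the raw table as named −0.33 (0.999). Among those 5 libraries it passed without NT 5 (−1.33, adjusted p = 0.00672), but not without NT 3 or NT 4. It also passed there with the replicate block (−1.39) or no low-count filter (−1.88), but not with DESeq2 or RLE scaling. The settings where it passed called more of all genes as well.

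None of 14 receptor and signalling genes passed. The values of the type I receptor chains were −0.0024 ± 0.11 for Ifnar1 and −0.011 ± 0.12 for Ifnar2. The smallest p-values of this list belonged to the transcription factors Irf8 (0.16 ± 0.074, adjusted p = 0.360) and Irf1 (0.13 ± 0.087, 0.582). Of 18 tested sensing genes, 1 rose, against 2.15% of all genes. Tlr7, the endosomal receptor for single-stranded RNA, was at 7.47, 4.15, 5.78, 3.91 and 3.03 CPM in NT and 14.2, 13.1, 19.4 and 18.7 CPM in LSD1i, with every LSD1i library above every NT library (1.74 ± 0.24, adjusted p = 0.00181). The call held without each of the 9 libraries and with the batch term (1.81, adjusted p = 0.00388). It also held in the 5 libraries named alike (2.24, adjusted p = 0.0280), though in 2 of the 5 fits that leave out 1 of these, those without NT 3 and NT 5. In the raw table as named Tlr7 was at 0.60 (adjusted p = 0.999). Next by p-value in this list was Samhd1, a nucleotide hydrolase (0.23 ± 0.14, adjusted p = 0.532).

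Of 39 further interferon-stimulated genes, 2 fell and none rose, against 1.16% of all genes lower and 2.15% higher. Ifitm2, of the membrane proteins that block virus entry, was at 27.0, 32.6, 31.9, 29.9 and 42.7 CPM in NT and 19.0, 15.3, 12.7 and 14.5 CPM in LSD1i. All LSD1i libraries lay below all NT libraries (−1.09 ± 0.15, adjusted p = 0.00213), and the call held without each of the 9 libraries. In the 5 libraries named alike it passed (−1.41, adjusted p = 0.0376), but of the 5 fits that leave out 1 of these libraries it passed in 1, that without NT 5. In the raw table as named Ifitm2 was at −0.48 (adjusted p = 0.999). The related Ifitm3, named after its values were seen, was at 2.11 ± 0.689 CPM in NT and 0.977 ± 0.371 CPM in LSD1i. It was lower in every LSD1i library than in any NT library, but did not pass (−1.09 ± 0.30, adjusted p = 0.0811). The groups overlapped for Ifitm1 (−0.24 ± 0.39, adjusted p = 0.862). Slfn5, of the Schlafen family, was at 17.3 ± 1.84 CPM in NT and 11.99 ± 1.71 CPM in LSD1i (−0.52 ± 0.12, adjusted p = 0.0417). This call was held in only 1 of the 9 fits without a library, the one without NT 5. It did not hold with the batch term (adjusted p = 0.0869), and in the raw table as named Slfn5 was at 0.12 (0.999). Slfn1 of the same family was higher in every LSD1i library than in any NT library. It did not pass (0.34 ± 0.10, adjusted p = 0.110), though DESeq2 called it (0.0431). Slfn2 (−0.11 ± 0.13, adjusted p = 0.796) and Slfn8 (0.069 ± 0.10, 0.849) did not pass.

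None of 22 genes of the interferon gamma response list passed, among them the GTPases Gbp11 (−0.56 ± 0.18, adjusted p = 0.157) and Tgtp2 (0.33 ± 0.15, 0.351), which had the smallest p-values and opposite signs. None of 7 feedback inhibitors passed, with Ptpn2, a phosphatase that acts on Jak and Stat proteins, at −0.092 ± 0.077 (adjusted p = 0.691) and Socs1, which blocks Jak kinases, at −0.23 ± 0.31 (0.823). Socs1 was highest in NT 5 (87.7 CPM), the library with the highest Ifng. NT 5 was the lowest NT library for 15 members but the highest for 5, and NT 4 was the lowest for 13. A link between these levels was not tested.

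**Figure D5:**
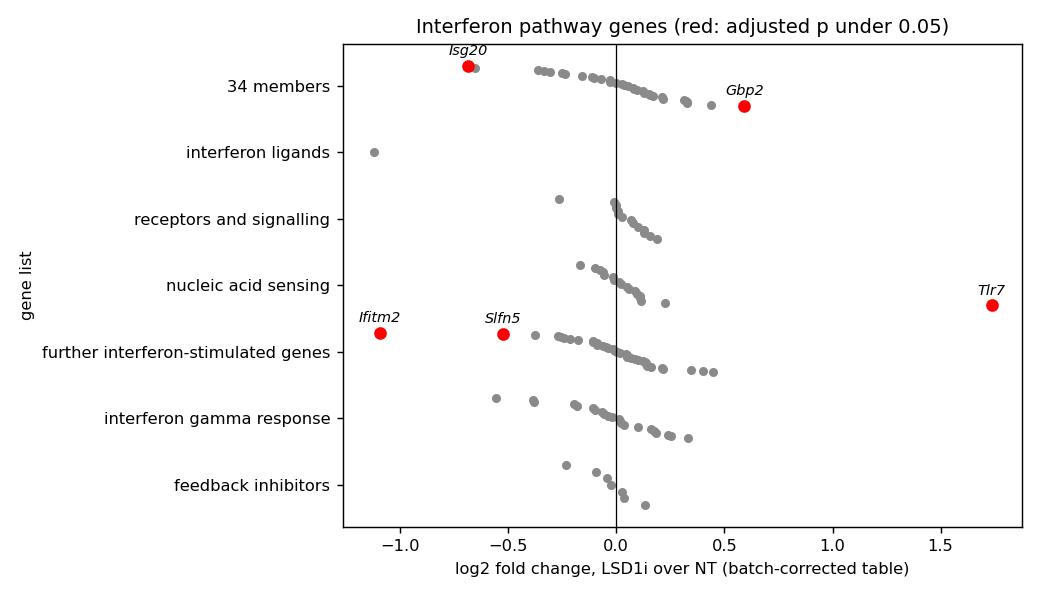
Log2 fold change of LSD1i over NT in the batch-corrected table (horizontal axis) for the 34 members and for the tested genes of 6 other interferon lists, each point 1 gene, spread vertically within its list by rank. Red points passed at an adjusted p under 0.05: Gbp2, Tlr7, Isg20, Ifitm2 and Slfn5, with Tlr7 at 1.74 and Ifitm2 at −1.09 lying outside the range of the members.

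In the authors' deposited table of results, 94 of 20052 genes are marked as up and 44 as down, and none of the 34 members is marked. With so few marked among all genes, 0 of 34 does not set the members apart. The authors' deposited table gives Gbp2 a log2 fold change of 0.60 (FDR 0.00808) and Isg20 one of −0.68 (FDR 0.00818), the 2 members with an FDR under 0.05 there. The smallest size among the marked genes in the authors' deposited table was 1.201, and 247 further genes with an FDR under 0.05, of sizes up to 1.19, are unmarked.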

How the data were processed

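Libraries were made with a SMARTer mRNA kit from 1 ug of total RNA, per the labels' protocols. STAR, featureCounts, edgeR and the build mm9 appear in the submitters' processing notes. Tool versions, strand setting and batch correction method were not given in the sources used here, so reads of overlapping genes cannot be told apart. The authors deposited raw counts, estimated counts after batch correction (rounded here to whole numbers, 0 decimals), and their own comparison with log2 fold changes, an F score and p-values.

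The members and lists were chosen with earlier results of these data known. Groups came from the sample titles and columns from their names within each table. Tests used edgeR 4.0.16 (R 4.3.3; quasi-likelihood, TMM scaling, low-count filter by group with minimum count 10 and total 15, Benjamini-Hochberg adjustment over all genes tested, threshold 0.05), unless DESeq2 1.42.0 is named. The main fit used all 9 libraries of the batch-corrected table with group only, and it charges no degrees of freedom for the correction already made. A log2 fold change carries its standard error, and a CPM (TMM-scaled) its SD. The fits were tried on generated counts that held known differences. Differences near the size of those of Gbp2 and Isg20 were recovered in part with 9 libraries and mostly missed with 5. A member that did not pass is therefore not shown to be equal in both groups. Libraries of a group all differed by more than sampling noise (chi-square per degree of freedom at least 7.10), so none was taken as a repeat deposit of another. This does not show separate cultures or animals. Per-library values are printed for members that passed in any of 3 fits and for the 2 members of each role group with the highest mean count, with Gbp3 added after its values were seen. Of each other list the genes that passed and the 2 with the smallest p-values are named. Ifitm1, Ifitm3, Slfn1, Slfn2, Slfn8, Ifnar1, Ifnar2 and the markers were added. Alternatives were DESeq2, RLE scaling, no low-count filter, a replicate block, a batch term, each batch alone and leaving out each library. Promoter windows are RefSeq's (GRCm38.p6), and exonic lengths and overlaps are from GENCODE vM21; no coordinates were converted. The Rnf213 gene of the lists was not found under that symbol.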

Additional observations from a re-analysis of the deposited data

Results flagged for a closer look

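Of 68 groups of 4 or 5 values (34 members in NT and in LSD1i) looked at for a library far from the others, 3 were picked out, and about 1 in 20 would be by chance. Gbp3 was lowest in NT 5, at 61.0 CPM against 74.6 to 79.4 in the other NT libraries, and Rsad2 was lowest in NT 5 as well, at 12.6 CPM against 19.1 to 21.2. Oas2 was lowest in LSD1i 3, at 0.644 CPM against 1.19 to 1.27 in the other LSD1i libraries, on 8 to 66 raw reads per library.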

How the results depend on the processing

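Over 17 alternatives, 536 of 578 member values kept direction and side of the threshold, 4 lost and 2 gained a call, and 36 values of 10 members, of sizes up to 0.32, changed sign. Gbp2 and Isg20 passed in every fit of all 9 libraries by the corrected names and lost their calls within each batch alone, where 0 members were higher and 0 lower (fewer libraries). With the replicate block 2 members were lower (Oasl1 added), in corrected and in raw counts. Over all genes the block called 219 higher and 107 lower of 11981 in corrected counts, and 236 and 116 of 11916 in raw counts. In the 5 libraries named alike, 2 were higher with DESeq2, no filter or the replicate block and 0 to 2 without 1 library, and 1 was lower with no filter, 2 with the block and 0 to 2 without 1 library. All genes moved with them, from 97 higher and 20 lower to 286 and 117 with DESeq2, 477 and 286 with no filter, 456 and 206 with the block, and 3 and 0 (without LSD1i 3 or LSD1i 4) to 520 and 256 (without NT 5). Of the other interferon genes, 2 were higher with DESeq2 or the block (corrected or raw) and 0 in replicates 1 and 2. Over all genes DESeq2 called 399 higher and 250 lower of 13832, and replicates 1 and 2 gave 8 and 0 of 11837. Of the other interferon genes 3 were lower with DESeq2 (Ifitm3 added, adjusted p = 0.0345). In that list 1 was lower with the block (corrected or raw), the batch term or replicates 3 to 5, 0 in replicates 1 and 2, and 1 to 2 without 1 library.

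Sign changes in replicates 1 and 2 were Ddx58 −0.15, Dhx58 −0.13, Zbp1 −0.17, Oas1a 0.15, Usp18 0.24 and Parp14 −0.072. In replicates 3 to 5 they were Stat2 0.17 and Oas3 0.17. With the replicate block they were Zbp1 −0.048, Oas1a 0.025 and Bst2 −0.0071, and in raw counts Zbp1 −0.041, Oas1a 0.043 and Usp18 0.050. With the batch term they were Oas1a 0.026 and Usp18 0.075. Usp18 was 0.00051 with RLE scaling, 0.0056 with no filter and 0.0014 with DESeq2. Without 1 library the ranges were Ddx58 −0.033 to 0.11, Zbp1 −0.052 to 0.14, Stat2 −0.083 to 0.046, Oas1a −0.12 to 0.041, Oas1b −0.0050 to 0.11, Oas3 −0.12 to 0.0044, Bst2 −0.0049 to 0.15 and Usp18 −0.12 to 0.10. The cause was not tested.

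Deviations of same-numbered libraries correlated at −0.12, 0.36, 0.11 and −0.34 in the corrected table and, with the batch still in the values, at 0.27 to 0.63 in the raw table as named and 0.54 to 0.78 under the corrected names, so the numbers are not taken to pair the samples. Beside the members named, the replicate block changed the calls of Slfn5 and the marker Cd79b (lost, adjusted p = 0.0696 and 0.115) and of Ly6a (gained, adjusted p = 0.0263). A fit that leaves 1 LSD1i library assumes that it varies like the others. Members at low counts, such as Oas2, are limited by depth.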
